A study of Drosophila melanogaster with 36 samples.

Results

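Total small RNA from cells without Dora was compared with that from wild-type (WT) cells in 6 of the 36 libraries of the series, chosen by their genotype and library type: 3 untreated total-sRNA libraries labelled dora and 3 labelled wild-type. All came from Drosophila S2 cells, a cultured line of embryonic origin. The dora lines carried CRISPR-made lesions in dora. How the WT clones were derived is not given in the sources used here, beyond scrambled guides in a list of oligonucleotides. Each of the 3 replicates of a genotype was a different clonal line, so the spread between replicates holds differences between clones. The study replotted these libraries from earlier work. Further libraries are used below only to show where the total-sRNA changes differ: 3 dora and 3 WT libraries of small RNA that copurified with Ago1, and 3 total-sRNA libraries of hen1/dora lines with 3 of hen1 lines, in which the small-RNA methyltransferase Hen1 is also missing.

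Argonaute proteins carry microRNAs (miRNAs) and small interfering RNAs (siRNAs) to their targets. In flies most miRNAs are held by Ago1 and most siRNAs by Ago2, and small RNAs held by Ago2 are methylated at their 3′ ends by Hen1. A few unusual targets pair so extensively with a miRNA that the miRNA, rather than the target, is destroyed. Dora, the fly counterpart of mammalian ZSWIM8, is the substrate adaptor of a cullin-RING ubiquitin ligase that acts in this target-directed degradation. A miRNA hairpin gives 2 arms, of which one (the guide strand) usually accumulates and the other (the passenger strand, here the arm that is rarer in WT) is mostly discarded. Both arms of a hairpin, and all hairpins of a genomic cluster, come from one primary transcript. The seed, bases 2 to 8 of the mature miRNA, is the part that pairs with most targets.

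The study names 10 miRNAs as Dora-sensitive and chose them on these libraries, so their direction below is a description and not independent evidence. The mature sequences of 9 of them are shown (RefSeq, Release 6 assembly, 5′ to 3′, seed in capitals). The members fall into seed families, and their cluster mates outside the 10, compared with them below, have other seeds. The tenth is miR-7-5p.
miR-9b-5p: uCUUUGGUgauuuuagcuguaug
miR-9c-5p: uCUUUGGUauucuagcuguaga
miR-279-3p: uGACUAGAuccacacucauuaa
miR-996-3p: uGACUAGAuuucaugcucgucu
miR-12-5p: uGAGUAUUacaucagguacuggu
miR-190-5p: aGAUAUGUuugauauucuugguug
miR-277-3p: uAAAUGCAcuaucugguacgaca
miR-999-3p: uGUUAACUguaagacugugucu
miR-1012-3p: uUAGUCAAagauuuuccccauag
Cluster mates of miR-277, miR-12 and miR-9b had these guide strands.
miR-34-5p: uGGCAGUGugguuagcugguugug
miR-317-3p: uGAACACAgcuggugguauccagu
miR-283-5p: aAAUAUCAgcugguaauucugg
miR-304-5p: uAAUCUCAauuuguaaaugugag
miR-306-5p: uCAGGUACuuagugacucucaa
miR-79-3p: uAAAGCUAgauuaccaaagcau

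The 10 miRNAs carried 8 different seeds. miR-9b-5p and miR-9c-5p shared one, and miR-279-3p and miR-996-3p shared another. Of the 10, 5 came from the 5p arm and 5 from the 3p arm, their lengths ran from 22 to 24 nt, 7 lay in introns of protein-coding genes and 3 in exons of long noncoding RNAs. The other miRNAs in the table with one of these seeds were miR-9a-5p, miR-960-5p and miR-286-3p. All 3 were too rare in WT to be tested, and their levels are given as a description, in RPM (reads per 1000000 miRNA reads of the library). miR-286-3p, with the seed of miR-279-3p, was at 9.58, 5.39 and 5.29 RPM in dora lines, against 1.49, 0.952 and 1.98 RPM in WT lines, with every dora line above every WT line. miR-9a-5p was at 0, 1.16 and 0 RPM in dora lines, against 0, 0 and 0.660 RPM in WT lines. miR-960-5p was at 0.833, 0.385 and 0.174 RPM in dora lines, against 0.994, 0 and 4.62 RPM in WT lines. The groups overlapped for miR-9a-5p and miR-960-5p.

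The libraries held between 2400148 and 11522776 miRNA reads in dora lines, against 1515851 to 2101843 in WT lines. One dora line was thus sequenced several times more deeply than the other 5 libraries. The number of the dora lines is not the same in the 2 deposited tables: the deepest library is dora 3 for miRNAs and dora 1 for siRNA loci. Each table is therefore read by genotype only, with the numbers of that table. Synthetic standards had been added in proportion to total RNA, and miRNA reads per read of standard were 69.7, 75.3 and 59.0 in dora lines, against 63.7, 65.5 and 65.4 in WT lines (dora minus WT 3.13, two-sided exact permutation test, p = 0.7, where the smallest p that 3 against 3 can give is 0.1). The dora libraries lay on both sides of the WT range. As a description of the cells, 6 miRNAs abundant in S2 cells, among them bantam-3p and miR-14-3p, were summed. They made up 62.2% to 66.0% of miRNA reads in dora lines and 63.2% to 67.7% in WT lines. These 6 were listed for their abundance, so a high share does not by itself identify the line. One of them, miR-34-5p, is called as increased below. Of 3 miRNAs typical of other tissues, miR-1-3p (muscle) stayed at or under 1.49 RPM and miR-124-3p (nervous system) at or under 0.952 RPM in all 6 libraries, while let-7-5p, a miRNA of late development, was at 26.2, 5.39 and 1.30 RPM in dora lines, against 2.49, 0 and 0.660 RPM in WT lines. Transcript of dora itself was not measured in small-RNA libraries.

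Loss of Dora raised a small group of guide strands by several fold. Their passenger strands changed less, with log2 fold changes from -0.46 to 0.88 in the 9 that were tested. Across 100 miRNAs that passed the filters on level and variation, 18 passed as increases and 12 as decreases, which is 18.0% and 12% of those tested (edgeR's quasi-likelihood test on counts, TMM normalization, Benjamini-Hochberg adjustment, adjusted p-value under 0.05). All 10 Dora-sensitive miRNAs were among the 18. In WT lines they made up 1.61% to 2.01% of all miRNA reads, and in dora lines 7.16% to 7.68%. These are shares of one library, so the other miRNAs together had to take a smaller one: the 90 other tested miRNAs held 92.0% to 92.8% of reads in dora lines and 97.9% to 98.4% in WT lines.

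**Figure D1:**
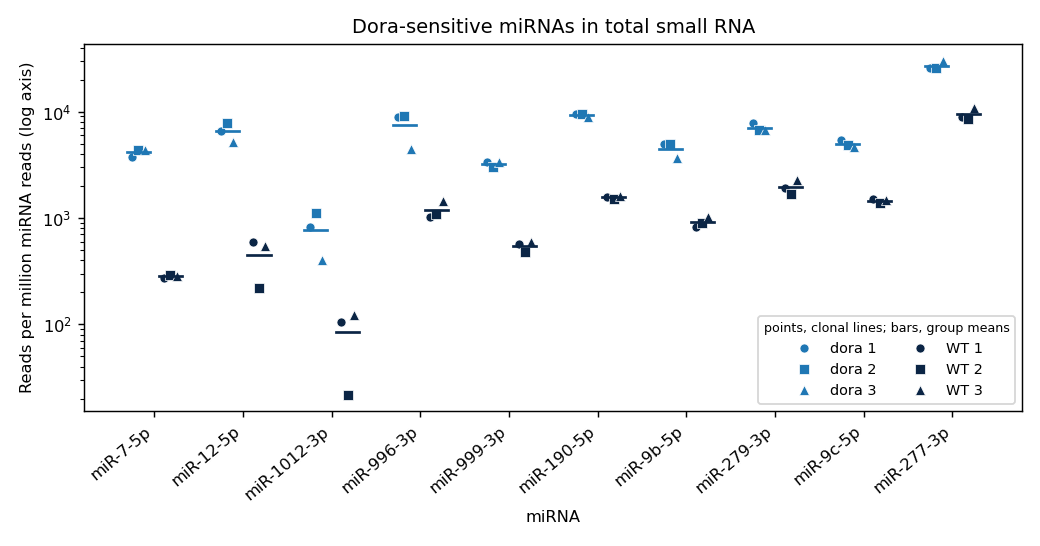
Levels of the 10 Dora-sensitive miRNAs in each clonal line, in RPM on a log axis, ordered by fold change, with dora lines left of WT lines, points for libraries and bars for group means. Every dora point lies above every WT point of the same miRNA, and miR-1012-3p, miR-12-5p and miR-996-3p show the widest spread between clones.

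miR-7-5p, encoded in an intron of HnRNP-K and a regulator of eye and sensory-organ development, and miR-12-5p had the highest fold changes, which did not differ beyond their errors. miR-7-5p was at 3717, 4317 and 4381 RPM in dora lines, against 273, 294 and 288 RPM in WT lines, a log2 fold change of 4.02 (SE 0.18, adjusted p = 2.55e-06, edgeR). The lowest dora line was 12.7-fold above the highest WT line, the widest gap among the 10. In rank of mean level it stood 32nd of 310 entries in dora lines and 58th in WT lines.

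miR-12-5p was more variable between clones. It was at 6595, 7877 and 5228 RPM in dora lines, against 593, 219 and 542 RPM in WT lines (log2 fold change 4.01, SE 0.37, adjusted p = 9.05e-05, edgeR). WT line 2 was well below the other 2 WT lines, and leaving out single libraries or changing the scaling, filter or tool gave log2 fold changes from 3.73 to 4.31.

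The third of the strongly raised miRNAs was miR-1012-3p, which is made from a short intron of Lerp that is spliced out and folds as a hairpin by itself (a mirtron). It was at 826, 1110 and 401 RPM in dora lines, against 106, 21.9 and 123 RPM in WT lines (log2 fold change 3.35, SE 0.61, adjusted p = 0.00556, edgeR). Its coefficient of variation was 45.8% among dora lines and 64.8% among WT lines, the largest of the 10, although the groups did not overlap. Without WT replicate 1, WT replicate 3 or dora replicate 3 its variation removed it from the test.

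miR-190-5p, encoded in an intron of rhea, was the most even between clones. It was at 9412, 9580 and 8813 RPM in dora lines, against 1569, 1502 and 1616 RPM in WT lines (log2 fold change 2.72, SE 0.13, adjusted p = 2.92e-06, edgeR). The coefficient of variation was 4.35% among dora lines and 3.64% among WT lines. miR-999-3p, from an intron of CASK, had 3355, 2990 and 3342 RPM in dora lines, against 565, 477 and 596 RPM in WT lines (log2 fold change 2.72, SE 0.18, adjusted p = 1.24e-05, edgeR).

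The seed pairs moved together but not by the same amount. miR-9b-5p, of the family that limits sensory-organ precursors in flies, had 4917, 4912 and 3652 RPM in dora lines, against 829, 903 and 1026 RPM in WT lines (log2 fold change 2.43, SE 0.16). miR-9c-5p had 5433, 4806 and 4605 RPM in dora lines, against 1492, 1394 and 1487 RPM in WT lines (log2 fold change 1.91, SE 0.15). Both increased (adjusted p = 1.24e-05 and 2.99e-05, edgeR), and their levels were closer to each other in dora lines than in WT lines.

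The second pair, miR-279-3p and miR-996-3p, acts in flies on the choice of olfactory neurons that sense CO2. miR-279-3p had 7752, 6649 and 6705 RPM in dora lines, against 1897, 1671 and 2263 RPM in WT lines (log2 fold change 2.01, SE 0.17, adjusted p = 5.12e-05, edgeR). miR-996-3p had 8887, 9053 and 4437 RPM in dora lines, against 1023, 1089 and 1437 RPM in WT lines (log2 fold change 2.78, SE 0.26, adjusted p = 9.05e-05, edgeR). The third dora line, the deepest library, was below the other dora lines for miR-996-3p and not for miR-279-3p. The change of neither pair was tested for a difference between its members.

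miR-277-3p, which regulates branched-chain amino acid catabolism and is partly held by Ago2, was the most abundant of the 10 and had the smallest fold change. It was at 25573, 25512 and 30078 RPM in dora lines, against 8977, 8543 and 10754 RPM in WT lines (log2 fold change 1.69, SE 0.18, adjusted p = 0.000162, edgeR). The lowest dora line was 2.37-fold above the highest WT line, the narrowest gap of the 10. With a mean of 27054 RPM it ranked 7th among all entries in dora lines, against 18th in WT lines.

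All 10 kept their direction and an adjusted p-value under 0.05 under every alternative in which they were tested. In all 10, the lowest dora library exceeded the highest WT library. Among the 100 tested miRNAs, 19.0% had that pattern and 29.0% had the opposite one, every dora library below every WT library.

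**Figure D2:**
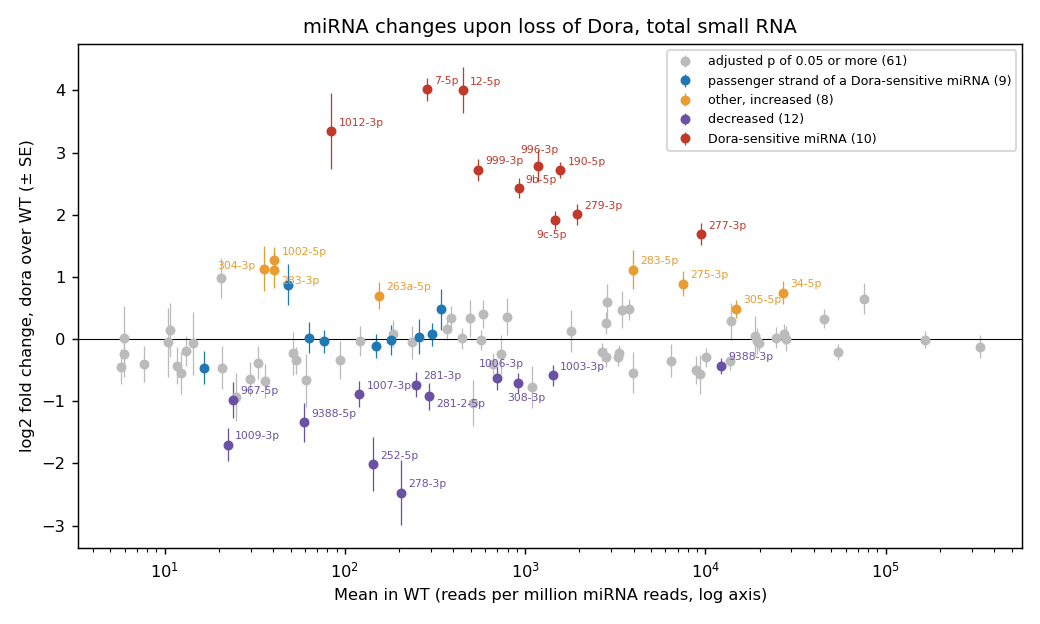
log2 fold change (dora over WT, ± SE) of the 100 tested miRNAs against their mean in WT lines in RPM on a log axis. Red points are the 10 Dora-sensitive miRNAs, blue points their 9 tested passenger strands, orange and purple points the other 8 increased and the 12 decreased miRNAs. The red points stand apart at 1.69 to 4.02, and the largest decrease, of miR-278-3p, is -2.47.

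The other arms of the same hairpins changed less. Of the 10 passenger strands, 9 could be tested, and 0 passed the test upward and 0 downward (edgeR), with a median log2 fold change of 0.02 beside -0.03 over all 100 tested miRNAs. At an unadjusted p-value under 0.05, and likewise by DESeq2 after adjustment, 1 of the 9 was higher, miR-12-3p, and 0 lower. The extremes were miR-12-3p, with 81.2, 111 and 52.9 RPM in dora lines against 65.6, 30.9 and 48.2 RPM in WT lines (log2 fold change 0.88, adjusted p = 0.0874, edgeR), and miR-999-5p, with 11.2, 12.7 and 9.55 RPM in dora lines against 16.4, 20.9 and 12.5 RPM in WT lines (log2 fold change -0.46, adjusted p = 0.249, edgeR). The groups overlapped for both.

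The ratio of guide to passenger reads within a library needs no scaling between libraries. For miR-7 it was 52.2, 62.6 and 116 in dora lines, against 4.16, 4.64 and 4.69 in WT lines. For miR-190 it was 54.2, 50.0 and 69.0 in dora lines, against 9.65, 6.41 and 11.0 in WT lines. For miR-277 it was 74.9, 80.9 and 49.8 in dora lines, against 30.6, 21.1 and 32.7 in WT lines. In these hairpins every dora ratio exceeded every WT ratio.

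The seed pairs gave the same picture. For miR-9b the ratio was 37.3, 36.8 and 33.7 in dora lines, against 6.04, 5.41 and 7.30 in WT lines. For miR-9c it was 20.1, 14.5 and 34.7 in dora lines, against 5.44, 5.75 and 5.78 in WT lines. Dora line 3 had the highest ratio for miR-9c and the lowest for miR-9b. For miR-279 the ratio was 119, 86.7 and 109 in dora lines, against 24.6, 21.0 and 30.9 in WT lines. For miR-996 it was 31.1, 30.9 and 15.7 in dora lines, against 3.87, 3.79 and 4.00 in WT lines.

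The variable miRNAs were steadier by this ratio in one case. For miR-12 it was 81.2, 71.2 and 98.9 in dora lines, against 9.05, 7.08 and 11.3 in WT lines, so that WT line 2 stood nearer to the other WT lines than by its RPM. For miR-1012 it was between 243 and 411 in dora lines, against 53.5, 15.3 and 62.3 in WT lines, from a passenger strand at 2.92 RPM or less in each library. For miR-999 it was 298, 235 and 350 in dora lines, against 34.4, 22.8 and 47.6 in WT lines.

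Across all 33 hairpins with both arms tested, the ratio of the arm more abundant in WT to the other was higher in every dora library than in every WT library for 11 (33.3%). These 11 were the 9 hairpins of Dora-sensitive miRNAs, whose fold change had been used by the study to choose them, and 2 of the 24 others, miR-34 and miR-275. For miR-34 the ratio of 5p to 3p reads was 19.0, 17.1 and 22.1 in dora lines, against 10.9, 9.53 and 9.97 in WT lines. For miR-275 the ratio of 3p to 5p reads was 76.7, 55.3 and 81.9 in dora lines, against 45.2, 39.6 and 38.0 in WT lines. The guide's log2 fold change exceeded that of the passenger by more than 1 in 9 of the 33 hairpins (27.3%), all of them Dora-sensitive ones, with a median difference of 2.71 among these 9 and 0.09 among the other 24. The difference between arms was not tested.

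**Figure D3:**
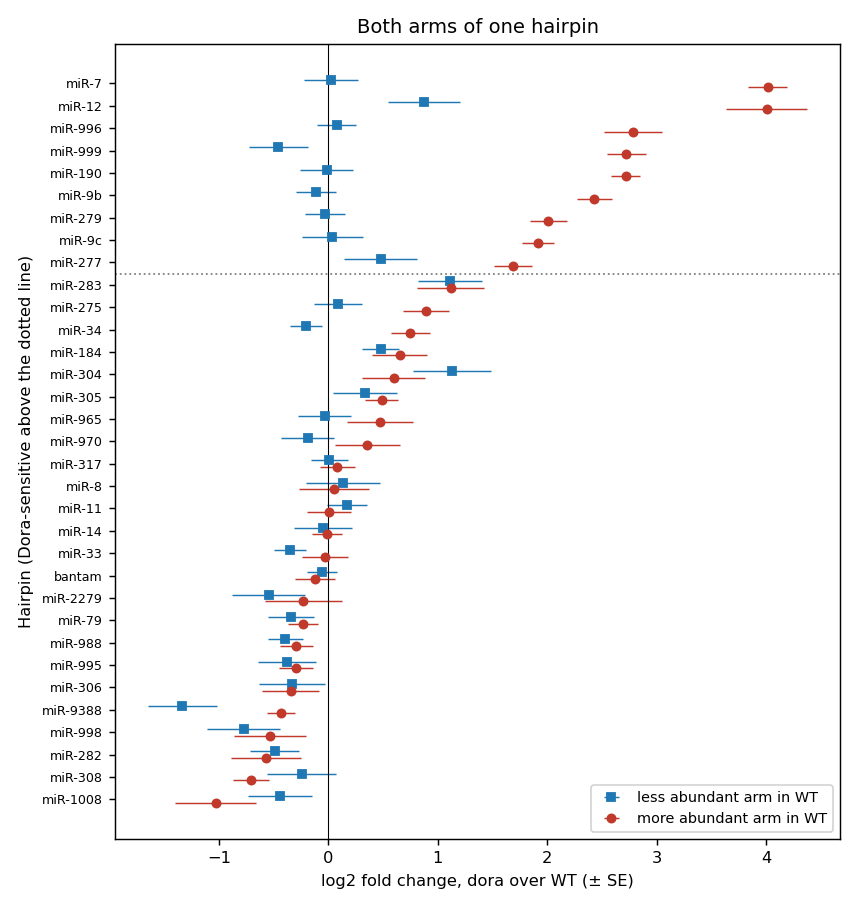
log2 fold change (dora over WT, ± SE) of both arms of the 33 hairpins with both arms tested, red circles for the arm more abundant in WT and blue squares for the other. Above the dotted line, for the 9 Dora-sensitive hairpins, the red circles lie between 1.69 and 4.02 while the blue squares lie between -0.46 and 0.88, and below it the more abundant arm exceeds the other most in miR-34, miR-9388 and miR-275, by 0.81 to 0.95.

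Cluster mates, cut from the same primary transcript, were compared next. In the cluster of miR-9c, miR-306, miR-79 and miR-9b, which spans 911 nt of an intron of grp on chromosome 2L (16697924 to 16698834), both miR-9 guides increased. The mates between them did not pass the test: miR-306-5p had 5972, 5420 and 2530 RPM in dora lines against 5836, 6555 and 6868 RPM in WT lines (log2 fold change -0.35, adjusted p = 0.34, edgeR), and miR-79-3p had 2589, 2620 and 2399 RPM in dora lines against 3178, 3468 and 3249 RPM in WT lines (log2 fold change -0.23, adjusted p = 0.249, edgeR). All dora libraries were below all WT libraries for miR-79-3p, and the groups overlapped for miR-306-5p.

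The cluster of miR-317, miR-277 and miR-34 covers 9909 nt of chromosome 3R (10091126 to 10101034), with miR-277 and miR-34 in an exon of lncRNA:CR43459. Beside miR-277-3p, miR-34-5p increased, a miRNA linked to ageing and neuronal maintenance in flies. It was at 38522, 35880 and 46352 RPM in dora lines, against 27090, 25479 and 28011 RPM in WT lines (log2 fold change 0.75, SE 0.18, adjusted p = 0.0166, edgeR). Its groups did not overlap, but the adjusted p-value was 0.0555 without WT replicate 1 and 0.0794 without WT replicate 3. miR-317-3p, the most distant member, had 24988, 23851 and 28581 RPM in dora lines against 26525, 26159 and 29083 RPM in WT lines, with overlapping groups (log2 fold change 0.08, adjusted p = 0.784, edgeR).

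In the cluster of miR-283, miR-304 and miR-12, which spans 1591 nt of an intron of Gmap on chromosome X (15507956 to 15509546), the mates increased too. miR-283-5p had 7830, 9110 and 6449 RPM in dora lines, against 5428, 2103 and 4379 RPM in WT lines (log2 fold change 1.12, SE 0.31, adjusted p = 0.0317, edgeR). Its other arm, miR-283-3p, was higher by 1.11 on the log2 scale (adjusted p = 0.0249, edgeR), and miR-304-3p by 1.13 (adjusted p = 0.0453, edgeR). miR-304-5p had 3537, 4614 and 3475 RPM in dora lines, against 3753, 1591 and 3163 RPM in WT lines, and did not pass the test (log2 fold change 0.60, adjusted p = 0.166, edgeR). WT line 2 was the lowest of the 6 libraries for all 6 arms of this cluster, miR-12-5p included. The calls of miR-283-5p, miR-283-3p and miR-304-3p were lost under each of the 3 other scalings of the libraries, and without WT replicate 3 or dora replicate 2. That of miR-283-5p was also lost without dora replicate 1 or dora replicate 3, and that of miR-304-3p without any one of the 6 libraries.

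In the cluster of miR-279 and miR-996, 1696 nt of chromosome 3R (29215585 to 29217280) in an exon of lncRNA:CR31044, both guides increased while the passenger strands had log2 fold changes of -0.03 and 0.08. Over the 4 clusters, of the 12 tested arms of mates that are not themselves Dora-sensitive hairpins, 4 increased (33.3% of 12, beside 18.0% of all tested) and 0 decreased, with a median log2 fold change of 0.05. At an unadjusted p-value under 0.05 the counts were also 4 and 0, as they were by DESeq2.

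**Figure D4:**
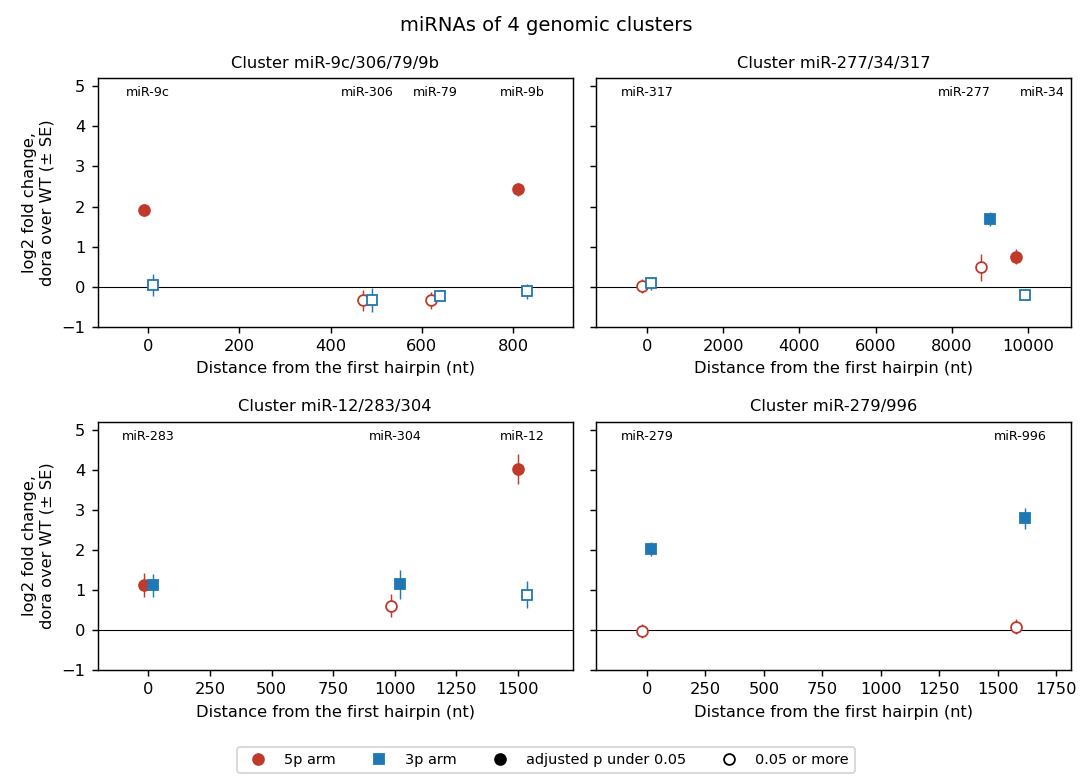
log2 fold change (dora over WT, ± SE) of each arm in 4 miRNA clusters against the distance of its hairpin from the first hairpin of the cluster in nt, circles for 5p arms and squares for 3p arms, filled where the adjusted p-value was under 0.05. In the 9c cluster the filled points are those of miR-9c-5p and miR-9b-5p, with miR-306 and miR-79 between them near 0, and in the 12 cluster every point is above 0.

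Besides the 10 Dora-sensitive miRNAs, 8 increased at an adjusted p-value under 0.05. The study had used DESeq2 with a stricter threshold, the p-value below which it saw increases only. It proposed that miR-34, which missed that threshold, might also undergo target-directed degradation. The largest of these changes was that of miR-1002-5p, at 106, 89.4 and 70.4 RPM in dora lines, against 41.7, 37.6 and 42.2 RPM in WT lines (log2 fold change 1.27, SE 0.21, adjusted p = 0.00351, edgeR). It was the one member of the 8 whose adjusted p-value stayed under 0.05 in all 14 alternatives. miR-275-3p had 10864, 11269 and 15118 RPM in dora lines, against 6900, 7802 and 7830 RPM in WT lines (log2 fold change 0.89, SE 0.21, adjusted p = 0.016, edgeR), a call that was lost without WT replicate 1 or WT replicate 3.

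miR-305-5p, which lies close to miR-275 on the same strand of chromosome 2L, regulates intestinal stem cells in flies. It had 20588, 21158 and 14968 RPM in dora lines, against 13104, 15288 and 16141 RPM in WT lines, with overlapping groups (log2 fold change 0.49, adjusted p = 0.0422, edgeR). miR-263a-5p, which protects bristle progenitors from cell death, had 220, 252 and 207 RPM in dora lines, against 114, 176 and 174 RPM in WT lines (log2 fold change 0.70, adjusted p = 0.0453, edgeR). Both calls were lost without WT replicate 1, WT replicate 3, dora replicate 1 or dora replicate 2, that of miR-263a-5p also without dora replicate 3, and both under the 3 other scalings of the libraries. The remaining increased miRNAs were miR-34-5p and the arms of miR-283 and miR-304 described above.

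The 12 decreases were mostly of rarer miRNAs, with a median WT mean of 226 RPM beside 473 RPM over all tested. miR-278-3p, which acts in energy homeostasis, had 42.5, 35.8 and 22.7 RPM in dora lines, against 294, 67.1 and 252 RPM in WT lines (log2 fold change -2.47, SE 0.52, adjusted p = 0.0123, edgeR). miR-252-5p had 45.4, 30.4 and 21.0 RPM in dora lines, against 179, 66.1 and 183 RPM in WT lines (log2 fold change -2.01, SE 0.43, adjusted p = 0.0129, edgeR). In both, WT line 2 was far nearer to the dora lines than the other WT lines were. Without dora replicate 2 both calls were lost, and without WT replicate 3 that of miR-252-5p. Without WT replicate 1, WT replicate 3 or dora replicate 3 miR-278-3p was too variable to be tested.

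Of the decreased miRNAs, 4 were mirtrons: miR-1009-3p, miR-1007-3p, miR-1006-3p and miR-1003-3p. miR-1009-3p had 8.33, 5.78 and 5.03 RPM in dora lines, against 24.8, 21.9 and 20.5 RPM in WT lines (log2 fold change -1.70, SE 0.27, adjusted p = 0.00254, edgeR), and was the only one of the 12 decreased in all alternatives. miR-1003-3p, the most abundant mirtron in WT, had 999, 916 and 678 RPM in dora lines, against 1307, 1384 and 1581 RPM in WT lines (log2 fold change -0.58, SE 0.17, adjusted p = 0.0391, edgeR). For both the groups did not overlap. miR-1006-3p had 465, 380 and 379 RPM in dora lines, against 812, 654 and 628 RPM in WT lines (log2 fold change -0.62, adjusted p = 0.0425, edgeR). miR-1007-3p had 53.3, 74.8 and 49.1 RPM in dora lines, against 118, 106 and 137 RPM in WT lines (log2 fold change -0.89, adjusted p = 0.016, edgeR). The dora lines were the lower ones in each. Among those that did not pass, miR-1008-3p had 323, 270 and 102 RPM in dora lines, against 501, 404 and 631 RPM in WT lines (log2 fold change -1.03, adjusted p = 0.0758, edgeR).

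Of 20 mirtron arms counted, 9 could be tested. Apart from miR-1012-3p, which is Dora-sensitive, all 8 had log2 fold changes below 0, from -1.70 to -0.25 with a median of -0.76. Over all 100 tested miRNAs, 45 had log2 fold changes above 0, with a median of -0.03. The 8 mirtron arms include both arms of the miR-1008 hairpin. The filter on level used the WT mean only, above 5 RPM. A mirtron arm rarer than that in WT could not enter, whatever its level in dora lines. The shared direction of the 8 is therefore partly set by the filter. miR-1008-5p and miR-1013-3p were just above the limit, with WT means of 5.75 and 5.92 RPM and dora means of 3.92 and 4.21 RPM. Of these 8, 4 decreased (50.0%, beside 12% of all tested) and 5 had every dora library below every WT library (29.0% of all tested). Together the 18 mirtron arms other than those of miR-1012 made up 0.187%, 0.167% and 0.123% of miRNA reads in dora lines, against 0.280%, 0.260% and 0.305% in WT lines. The groups did not overlap. No test was run on the list, which was drawn up with results of these data known. Among the 4 called mirtrons, the call of miR-1003-3p was lost without any one of the libraries but dora 3. That of miR-1006-3p was lost without any one of the 6, and that of miR-1007-3p without WT replicate 1, WT replicate 3, dora replicate 1 or dora replicate 3. Scaling to the added standards also removed the calls of miR-1003-3p, miR-1006-3p and miR-1007-3p. Scaling to the 15 miRNAs of the study's normalization cohort removed that of miR-1003-3p.

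The remaining decreases were smaller or tied to single hairpins. miR-281 has 2 entries for its 5p arm, one for each gene copy, and one for its 3p arm, of which 2 of 3 decreased. miR-281-2-5p had 135, 138 and 143 RPM in dora lines, against 240, 271 and 371 RPM in WT lines (log2 fold change -0.92, adjusted p = 0.016, edgeR), and miR-281-3p had 140, 143 and 119 RPM in dora lines, against 227, 208 and 309 RPM in WT lines (log2 fold change -0.73, adjusted p = 0.0296, edgeR). The other 5p entry, miR-281-1-5p, had 16.7, 19.3 and 23.7 RPM in dora lines, against 28.3, 41.9 and 38.3 RPM in WT lines, and did not pass (log2 fold change -0.67, adjusted p = 0.116, edgeR). In all 3 the dora lines were below the WT lines. Both arms of miR-9388 decreased too. miR-9388-5p had 27.5, 22.7 and 14.6 RPM in dora lines, against 73.1, 39.0 and 65.3 RPM in WT lines (log2 fold change -1.33, adjusted p = 0.016, edgeR), and miR-9388-3p changed by -0.43 on the log2 scale (adjusted p = 0.0397, edgeR). miR-308-3p had 520, 502 and 481 RPM in dora lines, against 1007, 813 and 906 RPM in WT lines (log2 fold change -0.71, adjusted p = 0.016, edgeR), and miR-967-5p a log2 fold change of -0.98 (adjusted p = 0.0397, edgeR). The groups were apart in miR-308-3p and in miR-9388-5p. Each of these 6 calls was lost without WT replicate 3 and without dora replicate 2, and each but that of miR-9388-5p without dora replicate 1. Without WT replicate 1 those of miR-281-3p, miR-308-3p and both arms of miR-9388 were lost. Those of miR-9388-3p and miR-967-5p were lost without WT replicate 2, and those of miR-281-3p and miR-9388-5p without dora replicate 3. Scaling to the added standards removed the calls of miR-281-3p and miR-9388-3p.

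The number of decreases changed with the libraries kept and with their scaling. Leaving out a library also lowers the number of lines in its group. Without WT replicate 3 only 1 miRNA decreased and 10 increased, without dora replicate 2 there were 2 decreases, without WT replicate 1 there were 4 and without dora replicate 1 there were 7. With libraries scaled to the added standards 7 decreased and 13 increased. With library sizes of all miRNA reads 15 decreased and 13 increased, and the median log2 fold change over the 100 miRNAs then moved to -0.18 from -0.03.

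Few of the most abundant miRNAs passed the test. Of the 10 with the highest WT means, 1 increased (miR-34-5p) and 0 decreased, with a median log2 fold change of 0.02. At an unadjusted p-value under 0.05, and by DESeq2, these counts were 2 and 0. bantam-3p, a growth-promoting miRNA and the most abundant of all, was at 246908, 257471 and 312589 RPM in dora lines, against 364766, 309584 and 319793 RPM in WT lines (log2 fold change -0.12, adjusted p = 0.689, edgeR), and the groups overlapped. For miR-14-3p, which acts in fat metabolism and cell survival, the log2 fold change was -0.01 (SE 0.14, adjusted p = 0.973, edgeR), which DESeq2 and other filters moved to the other side of 0. miR-184-3p had 112754, 96391 and 110742 RPM in dora lines, against 60378, 103568 and 62280 RPM in WT lines, where WT line 2 reached the dora range (log2 fold change 0.65, adjusted p = 0.0939, edgeR). Over the 15 miRNAs that the study used as a normalization cohort the median log2 fold change was -0.01. Of these, 1 increased (miR-34-5p) and 1 decreased (miR-1003-3p).

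For siRNAs the question was whether loss of Dora changed their levels over the genome. The authors had summed reads over 13063 loci that can form double-stranded RNA: inverted repeats that fold into long hairpins, regions of overlapping antisense transcripts (named cisNAT) and transposon insertions (named by FBti numbers), with others named overlap. The locus reads were few: recovered as whole numbers, they came to 244056, 57169 and 62027 in dora lines, against 50339, 54252 and 45419 in WT lines. They were 0.686%, 0.787% and 0.868% of genome-mapped reads in dora lines, against 0.732%, 0.738% and 0.741% in WT lines. The summed scaled values had a ratio of dora to WT means of 1.06 (two-sided exact permutation test, p = 0.5, smallest possible p 0.1), the dora lines lay on both sides of the WT range, and without dora replicate 3 the difference was slightly below 0.

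Tests were run at 963 loci that had reads in all libraries and whose coefficient of variation stayed below 1 within dora and within WT lines. There, limma on log2 of the scaled value plus 1 called 0 increases and 0 decreases at an adjusted p-value under 0.05 (0.00% each). Before adjustment, 89 loci (9.24%) had p-values under 0.05, of which 40 were higher and 49 lower in dora lines. On recovered reads edgeR called 2 increases and 1 decrease, and DESeq2 called 0. In the locus with median coverage the shallowest library had 3 reads. When every locus with a read in any library was admitted, 59 increased and 4 decreased, and all 59 had 0 reads in every WT line and a median of 3 reads in the deepest dora library.

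**Figure D5:**
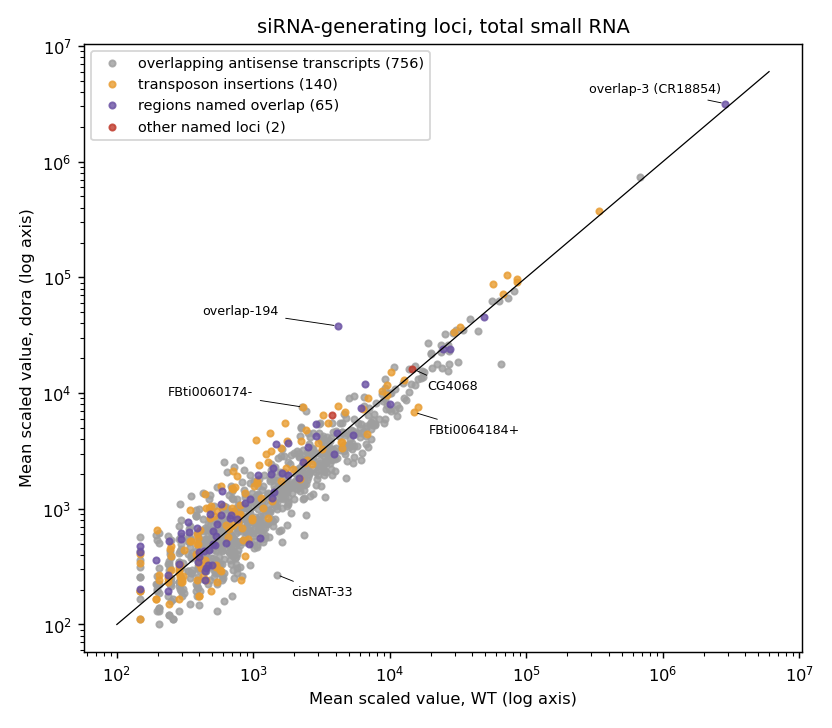
Mean scaled value (reads scaled to genome-mapped reads) of 963 siRNA-generating loci in dora lines against WT lines, both on log axes, coloured by the class in the locus name, with the line of equality. Loci scatter widely around the line at low values, and at high values most of them, overlap-3 and CG4068 included, lie close to it.

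The long hairpins, the best-known source of siRNAs in S2 cells, did not pass the test in either direction. The locus overlap-3 (dm6, chromosome 2L, 9787285 to 9790745) overlaps the hairpin RNA gene CR18854 and also IP3K1, and held 38.6% of the summed WT value. It was at 2282800, 2946090 and 4299180 in dora lines, against 2721300, 2899830 and 2910400 in WT lines (log2 fold change 0.11, SE 0.37, adjusted p = 0.922, limma). The dora lines straddled the WT lines, and the line at 4299180 was the highest of the 6.

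The hairpin locus CG4068 (dm6, chromosome X, 4921677 to 4928133) overlaps hpRNA:CR46342 and CG44774 in RefSeq. It was at 13923, 13632 and 21140 in dora lines, against 12949, 15642 and 15334 in WT lines (log2 fold change 0.12, SE 0.35, adjusted p = 0.911, limma). These values came from 495, 99 and 151 reads in dora lines, against 89, 115 and 94 reads in WT lines, and the groups overlapped. The named locus downstream of koi had 4444, 5921 and 8960 in dora lines, against 3928, 4217 and 3099 in WT lines, with no overlap (log2 fold change 0.73, adjusted p = 0.586, limma).

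By class, 91 of 140 transposon loci tested had log2 fold changes above 0 (median 0.21), as did 45 of 65 overlap loci (median 0.22) and 301 of 756 cisNAT loci (median -0.15), beside 439 of all 963 (median -0.06). Every dora line was above every WT line at 62 loci (6.44%) and below at 83 (8.62%). The 18 such higher loci among transposon insertions stand beside 4 lower ones, and the 37 among cisNAT loci beside 76 lower ones. Summed values of transposon loci averaged 1279058 ± 122936 in dora lines and 1070953 ± 69156 in WT lines (SD, n = 3 each, two-sided exact permutation test, p = 0.2), and those of cisNAT loci averaged 3058512 ± 155279 in dora lines and 3208056 ± 90764 in WT lines (SD, n = 3 each, exact permutation test, p = 0.2). With 3 lines in each group, no exact permutation test can go below p = 0.1. Insertions of one transposon family share sequence, so their values are not independent.

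Among single loci, overlap-194 (dm6, chromosome 2R, 6256172 to 6322173), which overlaps no gene of the RefSeq table, differed most among the loci described here. It was at 8073, 54802 and 51239 in dora lines, against 6838, 1496 and 4078 in WT lines. The first dora line was close to the highest WT line and the other dora lines were far above it (log2 fold change 3.03, SE 0.84, adjusted p = 0.491, limma, and adjusted p = 0.00141 by edgeR on recovered reads). FBti0060174- was the second locus called higher by edgeR, with 8663, 8399 and 5600 in dora lines, against 873, 2992 and 3099 in WT lines (log2 fold change 1.88, adjusted p = 0.491, limma, and adjusted p = 0.0343, edgeR).

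FBti0064184+ was called lower by edgeR. It was at 6160, 6472 and 7840 in dora lines, against 16150, 13874 and 15171 in WT lines (log2 fold change -1.15, adjusted p = 0.491, limma, and adjusted p = 0.0343, edgeR). The smallest adjusted p-value of limma was 0.178, at cisNAT-33 at fy and CG31898, with 394, 275 and 140 in dora lines against 1455, 1360 and 1631 in WT lines, and at cisNAT+1109. The cisNAT-33 values rest on 14, 2 and 1 reads in dora lines, against 10, 10 and 10 reads in WT lines. All of these groups were apart.

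None of the 10 most abundant loci passed the test in limma or edgeR, and their limma log2 fold changes ran from -1.50 to 0.53. limma shares variance with loci of few reads, and its SE was 0.32 at both cisNAT-1355 and FBti0060280+. A missing call at an abundant locus therefore does not measure the spread of its own lines. At cisNAT-1355, where GC2 and Tango9 overlap on chromosome 3R (dm6, 11971694 to 11972895), the values were 737464, 736661 and 748427 in dora lines, against 725136, 704723 and 612063 in WT lines (log2 fold change 0.13, adjusted p = 0.895, limma), and the dora lines were the higher ones. The transposon locus FBti0060280+ had 103821, 112220 and 98418 in dora lines, against 69254, 76444 and 71614 in WT lines, with no overlap (log2 fold change 0.53, adjusted p = 0.604, limma). The locus cisNAT+1539 split the WT lines, with 28860, 13081 and 11200 in dora lines, against 93697, 11426 and 90211 in WT lines (log2 fold change -1.50, adjusted p = 0.59, limma). WT line 2 of the locus values was there among the dora values, and the labels do not tie it to WT line 2 of the miRNAs.

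Where the total-sRNA changes differ from those of Ago1-bound miRNAs was tested with an interaction term over the 12 libraries. The total-sRNA libraries came from earlier work and the Ago1-IP libraries from the study, so library type and library set cannot be told apart. Of 86 miRNAs tested, 16 had a higher log2 fold change in Ago1-IP (18.6%) and 0 a lower one (0.00%), as signed differences, at an adjusted p-value under 0.05 (edgeR; 24 and 1 at an unadjusted p-value under 0.05). The median difference was 0.33, and scaling the library types separately brought it to 0.02 with 7 higher and 2 lower. Leaving out single libraries moved the median to between -0.46 and 0.37. Read against the median, miR-9c-5p and miR-190-5p stood out, with differences of 2.47 (SE 0.18) and 2.28 (SE 0.16), each with an adjusted p = 1.57e-07 (edgeR) and an adjusted p-value under 0.05 in all 14 alternatives. In Ago1-IP, miR-190-5p was at 7135, 7323 and 7144 RPM in dora lines, against 241, 282 and 278 RPM in WT lines, with groups far apart, against 9412, 9580 and 8813 RPM in dora lines and 1569, 1502 and 1616 RPM in WT lines in total sRNA.

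miR-9c-5p was likewise at 3920, 3811 and 3953 RPM in Ago1-IP of dora lines, against 202, 250 and 216 RPM in Ago1-IP of WT lines. miR-12-5p and miR-277-3p differed by 2.03 (SE 0.42) and 1.18 (SE 0.21). They kept their calls with separate scaling but in only 8 and 6 of the 14 alternatives. For miR-7-5p, miR-996-3p and miR-999-3p the differences of 0.77, 0.95 and 0.55 were no longer called with separate scaling, and those of miR-279-3p and miR-9b-5p (0.46 and 0.67) were not called. miR-1012-3p, at 585, 718 and 902 RPM in Ago1-IP of dora lines, against at most 124 RPM in Ago1-IP of WT lines, did not pass the filter on variation in this comparison. A decreased miRNA went the other way: miR-9388-5p, lower in dora lines in total sRNA, was at 179, 181 and 127 RPM in Ago1-IP of dora lines, against 30.8, 39.2 and 32.0 RPM in Ago1-IP of WT lines, a difference of 3.85 (SE 0.37, adjusted p = 3.38e-06, edgeR).

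Against the hen1 background, where hen1/dora lines were set beside hen1 lines, the log2 fold change was higher than in the WT background for 2 of 93 tested miRNAs (2.15%) and lower for 1 (1.08%), as signed differences (edgeR interaction term). The 2 were miR-252-5p, with a log2 fold change of 0.41 in the hen1 background against -2.01 in the WT background, and miR-9388-5p, with 0.28 against -1.33. None of the 3 kept an adjusted p-value under 0.05 in all alternatives. The lower one was the Dora-sensitive miR-279-3p, at 7369, 7595 and 7578 RPM in hen1/dora lines, against 2693, 4190 and 4532 RPM in hen1 lines, a difference in log2 fold change of -1.03 (SE 0.26, adjusted p = 0.0437, edgeR). The other 8 Dora-sensitive miRNAs tested had differences between -0.64 and 0.61 with adjusted p-values above 0.05. The hen1 libraries formed another set than the WT and dora ones, so background and library set cannot be told apart.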

How the data were processed

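The authors trimmed and filtered reads, string-matched miRNAs to them and deposited counts of reads per miRNA (310 fly entries, of which 307 were matched to RefSeq). For loci, the authors aligned reads to dm6 (STAR, CuffDiff) and deposited a signal: locus read numbers, multimappers included, brought to a common depth of mapped reads with no correction for length. Whole reads (within 0.05) could be recovered from at least 99.97% of its entries per library. The plan assumed counts for loci, so limma on log2(value + 1) replaced a count test. miRNAs were tested above a WT mean of 5 RPM, with outlying coefficients of variation (over 1.5 interquartile ranges) removed, by edgeR with TMM. The interaction fits took libraries as independent. Named genes were the Dora-sensitive miRNAs, their other arms, cluster mates, every other called miRNA, the 10 most abundant, mirtrons, hairpin loci, overlap-194, the 10 most abundant loci and up to 5 loci per direction with the smallest p. Members and lists were chosen with earlier results of these data known. One WT column of the miRNA table is numbered 22 and is called WT 2 here, but the labels do not tie it to WT 2 of the loci. Tests compare clonal lines. For loci, limma drew the variance of each locus towards a value shared by all tested loci, whatever their level. The limma SE of an abundant locus is therefore not the spread between its own lines alone. Tools were R 4.3.3, edgeR 4.0.16, limma 3.58.1, DESeq2 1.42.0 and scipy 1.17.1. 0 sample columns were left unassigned.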

Additional observations from a re-analysis of the deposited data

Results flagged for a closer look

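In Ago1-IP, 16 miRNAs had a Dora-dependent change that differed from that in total sRNA (edgeR interaction term, adjusted p under 0.05), and all 16 signed differences were above 0. For miR-308-3p, miR-281-2-5p and miR-281-3p the log2 fold change was nearer 0 in Ago1-IP (0.02, -0.33 and -0.17) than in total sRNA (-0.71, -0.92 and -0.73). These values come from a separate fit of each library type and do not subtract to the differences below. With separate scaling the difference of miR-308-3p was 0.72 (adjusted p = 0.0226, edgeR). Those of miR-281-2-5p and miR-281-3p were then 0.57 and 0.55 and no longer called (adjusted p = 0.284 and 0.273, edgeR). The differences in log2 fold change (Ago1-IP minus total sRNA), beside a median of 0.33 over the 86 tested, were as follows. Among Dora-sensitive miRNAs they were 2.47 for miR-9c-5p, 2.28 for miR-190-5p, 2.03 for miR-12-5p, 1.18 for miR-277-3p, 0.95 for miR-996-3p, 0.77 for miR-7-5p and 0.55 for miR-999-3p. Among miRNAs decreased in total sRNA they were 3.85 for miR-9388-5p, 1.03 for miR-308-3p, 0.90 for miR-281-2-5p and 0.88 for miR-281-3p. Among the rest they were 1.61 for miR-275-5p, 1.39 for miR-308-5p, 1.03 for miR-33-5p, 0.71 for miR-317-5p and 0.64 for miR-305-5p. With libraries of each type scaled separately 7 were called above 0 and 2 below, and 3 of the 16 (miR-190-5p, miR-9c-5p and miR-9388-5p) passed in all 14 alternatives.

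In the hen1 background (hen1/dora over hen1, minus dora over WT), the differences were 2.49 for miR-252-5p, 1.69 for miR-9388-5p and -1.03 for miR-279-3p, each with an adjusted p = 0.0437 (edgeR). miR-252-5p was at 56.9, 55.7 and 29.1 RPM in hen1/dora lines, against 26.0, 53.9 and 23.0 RPM in hen1 lines, and miR-9388-5p at 240, 314 and 270 RPM in hen1/dora lines, against 143, 273 and 232 RPM in hen1 lines. Both decreased in dora lines over WT lines, and 0 of the 3 passed in all alternatives.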

How the results depend on the processing

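All 10 increases of Dora-sensitive miRNAs passed under every alternative that tested them, as did those of miR-1002-5p and the decrease of miR-1009-3p, while the other 7 increases and 11 decreases were each lost under at least 1. Scaling to the added standards gave 7 decreased miRNAs. Leaving out single replicates gave 10 to 21 increased and 1 to 11 decreased. At siRNA loci edgeR on recovered reads gave 2 increases and 1 decrease, and admitting loci above 0 in any library gave 59 and 4. Without dora replicate 3 the difference in the summed locus value became -2525 (range to 906862), and without dora replicate 2 that in miRNA reads per standard read became -0.522 (range to 7.65). For Ago1-IP minus total, scaling within library types gave 7 above and 2 below 0, library size 10 above and 2 below, and leaving out replicates 3 to 18 above and 0 to 16 below. For the hen1 background they gave 2 below, then 7 above and 0 below, and 0 to 3 above with 0 to 1 below. No paired analysis was possible because dora numbers name different libraries in the 2 tables and a WT column is numbered 22. The locus with median coverage had 3 reads in its shallowest library. The causes of these shifts were not tested.

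The log2 fold changes of some uncalled items near 0 changed sign with the setting. With library size the value was -0.16 for miR-11-3p, -0.13 for miR-13b-3p, -0.0788 for miR-317-3p, -0.14 for miR-317-5p, -0.11 for miR-7-3p, -0.0798 for miR-996-5p and -0.0797 for miR-9c-3p. With the cohort the value was -0.0867 for miR-11-3p, -0.0499 for miR-13b-3p, -0.0617 for miR-317-5p, -0.0185 for miR-7-3p and -0.000346 for miR-996-5p. With the standards the value was -0.12 for miR-11-3p, -0.0727 for miR-13b-3p, -0.0223 for miR-317-3p, -0.0767 for miR-317-5p, -0.00601 for miR-7-3p and -0.0123 for miR-996-5p. With no variation filter the value was -0.00608 for miR-11-3p and -0.00315 for miR-317-5p. With DESeq2 the value was 0.0283 for miR-14-3p, 0.0248 for miR-190-3p and 0.00704 for miR-279-5p. With no RPM filter the value was 0.0215 for miR-14-3p, 0.00929 for miR-190-3p and 0.00155 for miR-279-5p. With variation taken on standard-scaled values the value was 0.0309 for miR-14-3p, 0.0233 for miR-190-3p and 0.00669 for miR-279-5p. Leaving out single replicates did so for the miRNAs bantam-3p (-0.30 to 0.00162), bantam-5p (-0.0911 to 0.0545), miR-11-3p (-0.23 to 0.16), miR-13b-3p (-0.0953 to 0.18), miR-14-3p (-0.0271 to 0.13), miR-190-3p (-0.13 to 0.28), miR-279-5p (-0.0717 to 0.0558), miR-317-3p (-0.0585 to 0.18), miR-317-5p (-0.0306 to 0.0935), miR-7-3p (-0.11 to 0.24), miR-9b-3p (-0.13 to 0.0456) and miR-9c-3p (-0.18 to 0.32). It did so for the loci CG4068 (-0.0828 to 0.23), overlap-3 (-0.13 to 0.32), FBti0019450+ (-0.0163 to 0.18), cisNAT+1717 (-0.64 to 0.0165) and FBti0063646- (-0.0627 to 0.20). It did so for the Ago1-IP differences of miR-279-3p (-0.43 to 0.52), miR-281-2-5p (-0.0914 to 1.04), miR-281-3p (-0.0215 to 0.96), miR-305-5p (-0.22 to 0.74), miR-317-5p (-0.13 to 0.80), miR-7-5p (-0.12 to 0.87), miR-999-3p (-0.32 to 0.64) and miR-9b-5p (-0.16 to 0.75). It did so for the hen1-background difference of miR-277-3p (-0.079 to 0.29).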
